A study of Mus musculus with 12 samples.

Results

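Interferon-stimulated genes were studied as a list of 39 named genes. They were looked up by mapping Ensembl identifiers to mouse symbols, and all 39 were found among the 54532 genes of the table. Of these genes, 36 were among the 12871 that reached 1 FPKM in 3 or more libraries and were tested. FPKM are fragments per kilobase of exon, scaled for the depth of the library. The 3 that missed this minimum, Ifit3b, Oasl1 and Mx2, are given with their levels. In the control cultures in adipogenic medium, libraries 1 and 3 stood above all 9 libraries of the other groups for 39 of 39 genes. Of all genes tested, 20.2% had both libraries there. Library 2 stood above those 9 libraries for 0 of the 39.

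Interferons are secreted signals of infection. Type I interferons bind a receptor made of Ifnar1 and Ifnar2, whose kinases Jak1 and Tyk2 phosphorylate transcription factors such as Stat2, which acts with Irf9 in a complex that binds interferon-stimulated response elements in the promoters of the genes described here. The products sense foreign nucleic acid, block translation, degrade RNA, modify proteins with ubiquitin-like Isg15 or hinder virus entry and release, and macrophages are among the cells known to express them strongly after stimulation.

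RNA came from bone marrow mesenchymal stem cells (MSCs) of C57BL/6 mice aged 4 weeks, cultured to passage 3 and collected 5 days after induction. The genotypes were Chd7fl/fl, labelled WT, and Prx1-cre;Chd7fl/fl, labelled KO, so both carried the floxed alleles and only the latter the Cre transgene. Osteogenic medium contained ascorbic acid (50 µM), dexamethasone (10 nM) and β-glycerophosphate (10 mM), whereas adipogenic medium contained insulin (10 µg/ml), dexamethasone (1 µM) and isobutylmethylxanthine (0.5 µM). The groups WT Osteo, KO Osteo, WT Adipo and KO Adipo had 3 libraries each. The Prx1 promoter drives Cre in early limb mesenchyme and its descendants, so blood-derived cells in a culture would keep Chd7. Nothing in the labels says that libraries came from separate animals, and p-values measure the spread between these libraries, which may be technical.

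Fragments on genes numbered 17500711 to 21099485 per library, recovered from the steps between low values, and 3 fragments on a gene of 1 kilobase were worth 0.143 to 0.185 FPKM. Chd7 itself was at 2.69 ± 0.0682 FPKM in WT Osteo, 2.22 ± 0.166 in KO Osteo, 2.10 ± 0.255 in WT Adipo and 2.29 ± 0.235 in KO Adipo (SD, n = 3 each). The deleted exon 2 is a part of the gene, so a value over the whole gene does not check the deletion, and KO stands for the label throughout. The MSC label was set against marker genes. Summed over 16 macrophage markers, FPKM were 6700.2 to 18912 per library, and 1216 to 1848 over 10 stromal markers. These sums are over different genes and do not compare numbers of cells. Per library, 7 to 9 of the 10 stromal markers were at 1 FPKM or more, and Thy1 was at 0.206 to 1.03. The paper identified its MSCs by flow cytometry with antibodies to CD29 and CD90.2, and its methods list further antibodies. RNA of a single marker gene and protein on the cell surface are unlike measures, so Thy1 does not check that label. Siglech and Klk1 of plasmacytoid dendritic cells and Cd3e, Cd3d, Cd8a, Ncr1 and Nkg7 of T and NK cells were listed at 0 in all 12 libraries. Such a 0 is not read as absence. The remaining T and NK marker, Cd4, was at 1.83 to 6.66 FPKM, and the 6 plasmacytoid dendritic markers summed to 17.5 to 25.8. In a bulk sample, fewer cells of a type and less RNA per cell cannot be told apart.

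One library stood apart from its label. Over all genes tested, the mean Pearson's r of WT Adipo library 2 was 0.941 with the other WT Adipo libraries, 0.967 with KO Adipo, 0.981 with WT Osteo and 0.983 with KO Osteo. Libraries 1 and 3 were the farthest from the other groups, with mean r of 0.929 to 0.936. Whether library 2 was exchanged or induced differently was not tested, and the counts of genes passing that rest on WT Adipo are given with and without it.

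The promoters of many of these genes carry the element through which the complex of Stat2 and Irf9 acts. RefSeq windows on GRCm38.p6, from 250 bases before to 50 after the transcription start, were at hand for 30 of the 39 genes. Both strands were searched for the core of the interferon-stimulated response element, GAAA, any 2 bases and GAAA again, which was found in 17 of 30 genes (56.7%) against 1079 of 27025 genes with a window (3.99%). The core of the gamma-activated site, TTCNNNGAA, was found in 8 of 30 (26.7%) against 2582 of 27025 (9.55%). These are matches of letters and not measured binding. Stretches of 60 bases are shown for some of the 17 genes with a match. Bases are read 5′ to 3′ on the strand of the gene, with matches of the GAAA core on either strand in capitals. Irf7, Irf9, Usp18, Zbp1, Mx1 and Xaf1, also described below, had no match of this core or no window.
Isg15 (chr4:156200856-156200915, minus strand, -97 to -38 from the start): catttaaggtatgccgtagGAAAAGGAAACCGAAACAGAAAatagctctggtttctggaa
Ifit1 (chr19:34640769-34640828, plus strand, -120 to -61 from the start): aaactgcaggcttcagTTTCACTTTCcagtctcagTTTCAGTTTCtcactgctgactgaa
Ifit3 (chr19:34583365-34583424, plus strand, -164 to -105 from the start): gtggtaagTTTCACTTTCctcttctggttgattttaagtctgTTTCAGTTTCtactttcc
Ifit3b (chr19:34607761-34607820, plus strand, -196 to -137 from the start): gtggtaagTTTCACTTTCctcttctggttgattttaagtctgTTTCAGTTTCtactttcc
Rsad2 (chr12:26456538-26456597, minus strand, -145 to -86 from the start): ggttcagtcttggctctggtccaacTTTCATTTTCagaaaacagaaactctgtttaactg
Gbp2 (chr3:142620579-142620638, plus strand, -84 to -25 from the start): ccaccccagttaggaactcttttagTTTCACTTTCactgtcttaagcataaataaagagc
Gbp3 (chr3:142559977-142560036, plus strand, -67 to -8 from the start): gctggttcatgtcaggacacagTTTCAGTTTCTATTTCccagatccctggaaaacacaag
Stat2 (chr10:128270251-128270310, plus strand, -247 to -188 from the start): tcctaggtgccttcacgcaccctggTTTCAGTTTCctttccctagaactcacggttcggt
Oas1a (chr5:120907508-120907567, minus strand, -42 to 17 from the start): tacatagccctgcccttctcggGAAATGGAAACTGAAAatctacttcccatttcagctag
Oas1g (chr5:120887594-120887653, minus strand, -40 to 19 from the start): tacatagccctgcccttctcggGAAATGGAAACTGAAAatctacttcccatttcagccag
In Isg15, 3 matches overlap in one run. The Ifit3 and Ifit3b stretches differ at 0 of 60 bases and those of Oas1a and Oas1g at 1 of 60. These stretches are promoter sequence, and the transcripts of the pairs were not compared. How reads shared by close copies were counted is not given in the sources used here. If transcripts share reads, the split of values within each pair, or among the neighbouring Gbp genes, is uncertain.

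The genes were ordered by role, from transcription factors to effectors. Averaged over the 39, log2(FPKM + 1) was 2.31, 2.15 and 2.78 in WT Osteo libraries 1 to 3, 2.19, 2.40 and 2.29 in KO Osteo, 5.27, 2.40 and 4.84 in WT Adipo and 2.80, 2.38 and 2.56 in KO Adipo. Library 2 of WT Adipo thus sat among the other groups, and libraries 1 and 3 far above. Group means were 2.41 ± 0.327, 2.29 ± 0.106, 4.17 ± 1.54 and 2.58 ± 0.212 in the same order (SD, n = 3). The median gene was at 34.8, 3.70 and 25.0 FPKM in WT Adipo libraries 1 to 3. Library 2 was within the range of the 9 libraries of the other groups for 37 genes and below it for 2. The share of all genes so placed was not counted. Of all genes tested, 2604 (20.2%) had libraries 1 and 3 both above those 9 libraries.

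**Figure D1:**
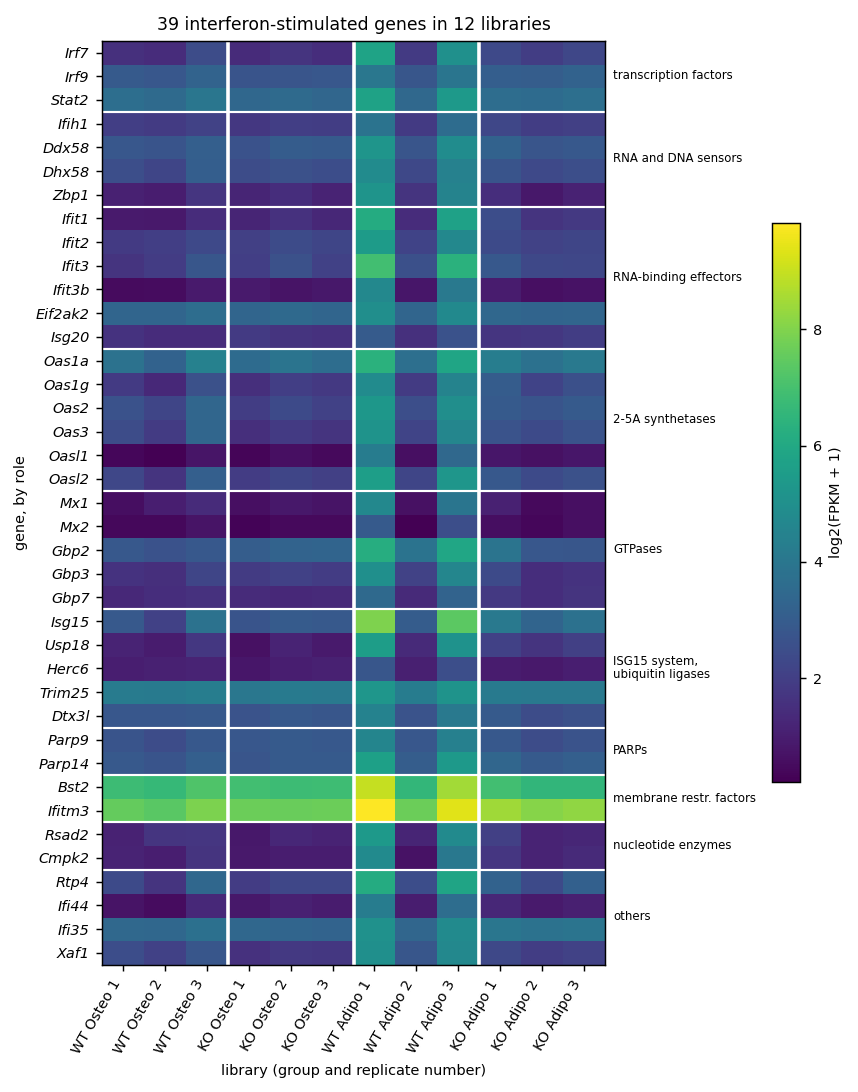
Level of the 39 interferon-stimulated genes (y axis, by role) in each of 12 libraries (x axis, group and replicate number), coloured by log2(FPKM + 1). The columns of WT Adipo libraries 1 and 3 are the brightest for 39 of 39 genes, while library 2 resembles the columns of the other groups.

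Among the transcription factors, Irf7 (ENSMUSG00000025498, chromosome 7 from 141262706 to 141266481, minus strand), which drives the later wave of type I interferon production, had FPKM of 1.93, 1.67 and 4.48 in WT Osteo libraries 1 to 3, 1.62, 2.15 and 1.74 in KO Osteo, 54.6, 2.56 and 31.9 in WT Adipo and 4.08, 2.88 and 3.79 in KO Adipo. Libraries 1 and 3 of WT Adipo were 21.3 and 12.5 times library 2, and no other library exceeded 4.48. Irf9 (ENSMUSG00000002325, chromosome 14 from 55603571 to 55610030, plus strand), the DNA-binding subunit of the interferon-responsive complex, varied least of the 3 factors, with FPKM of 6.62, 6.06 and 8.58 in WT Osteo libraries 1 to 3, 5.51, 5.77 and 6.1 in KO Osteo, 15.3, 5.84 and 14.6 in WT Adipo and 7.56, 7.27 and 8.3 in KO Adipo. For its partner Stat2 (ENSMUSG00000040033, chromosome 10 from 128270559 to 128292849, plus strand) the FPKM were 11.8, 10.7 and 15 in WT Osteo libraries 1 to 3, 9.7, 10.5 and 9.58 in KO Osteo, 53.5, 10.1 and 41.2 in WT Adipo and 11.4, 10.9 and 12.3 in KO Adipo. For each of the 3 factors WT Osteo overlapped with KO Adipo, and WT Adipo library 2 lay within the range of the others.

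Sensors of foreign nucleic acid followed the same order of libraries. Ifih1 (MDA5) and Ddx58 (RIG-I), which detect viral double-stranded RNA, were at 13.8, 2.61 and 11.2 and 36.5, 5.7 and 28.9 FPKM in WT Adipo libraries 1 to 3, against 2.39 to 3.73 and 5.21 to 8.47 over the 9 libraries of the other groups. Their regulator Dhx58 (LGP2) was at 27.7, 3.91 and 20.4, against 3.62 to 7.38. Zbp1 (ENSMUSG00000027514, chromosome 2 from 173206612 to 173218923, minus strand), a sensor of Z-form nucleic acid that can start necroptosis, had FPKM of 1.16, 0.978 and 2.26 in WT Osteo libraries 1 to 3, 1.33, 1.79 and 1.28 in KO Osteo, 35.1, 2.17 and 22.1 in WT Adipo and 1.8, 0.797 and 1.18 in KO Adipo. It was the sensor with the widest gap, 16.2 and 10.2 times library 2 in libraries 1 and 3.

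The Ifit proteins bind foreign RNA and stop its translation, and their genes lie side by side on chromosome 19. Ifit1 (ENSMUSG00000034459, chromosome 19 from 34640871 to 34650009, plus strand) had FPKM of 0.851, 0.806 and 1.7 in WT Osteo libraries 1 to 3, 1.3, 2.0 and 1.45 in KO Osteo, 69, 1.67 and 51.6 in WT Adipo and 4.59, 2.18 and 2.54 in KO Adipo. Ifit3 (ENSMUSG00000074896, chromosome 19 from 34583531 to 34588731, plus strand) had FPKM of 2.12, 2.8 and 5.84 in WT Osteo libraries 1 to 3, 3.03, 4.97 and 3.21 in KO Osteo, 120.3, 4.82 and 79.6 in WT Adipo and 6.16, 3.95 and 3.77 in KO Adipo. Both genes passed from under 7 FPKM in 10 libraries to over 50 in the remaining 2, and their promoters hold 2 response element cores each, shown above. Ifit2 was at 43.5, 3.48 and 25 FPKM in WT Adipo against 2.64 to 4.27 elsewhere, and Ifit3b at 24.8, 0.717 and 16.1 against 0.414 to 0.905. Eif2ak2 (PKR), a kinase that halts translation when it binds double-stranded RNA, differed less between the WT Adipo libraries, at 29.8, 9.31 and 26.7 against 8.89 to 11.4. The RNA exonuclease Isg20 was at 6.84, 1.95 and 5.18 against 1.67 to 2.89.

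Oas enzymes make short oligoadenylates that switch on RNase L, and their genes form a cluster on chromosome 5. Oas1a was the most abundant, at 79.6, 12.2 and 57.1 FPKM in WT Adipo libraries 1 to 3 and 8.49 to 20.6 in the other groups. Its close copy Oas1g was at 27.6, 2.7 and 21.6 and 1.5 to 7.05, Oas2 at 38.5, 4.72 and 30.3 and 2.89 to 9.46, and Oas3 at 34.8, 3.6 and 23.6 and 1.81 to 9.54. The highest of the 9 other libraries was WT Osteo library 3 for Oas1a, Oas2 and Oas3. The related Oasl2 was at 48.1, 3.7 and 37.3 against 2.14 to 7.78, and Oasl1, which is known to restrain Irf7 translation, at 17.8, 0.513 and 9.87 against 0.182 to 0.755.

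The interferon-induced GTPases include antiviral Mx proteins and the guanylate-binding proteins, which attack the vacuoles of intracellular pathogens. Mx1 (ENSMUSG00000000386, chromosome 16 from 97447035 to 97462907, minus strand), which carries an inactivating deletion in C57BL/6 mice, had FPKM of 0.495, 1.02 and 1.64 in WT Osteo libraries 1 to 3, 0.529, 0.789 and 0.638 in KO Osteo, 24.8, 0.543 and 14.6 in WT Adipo and 1.14, 0.364 and 0.528 in KO Adipo. Its ratio of 45.7 between WT Adipo libraries 1 and 2 was the largest of the 39 genes. Mx2 was at 6.65, 0.159 and 4.8 FPKM in WT Adipo against 0.231 to 0.626 elsewhere. Gbp2 (ENSMUSG00000028270, chromosome 3 from 142620602 to 142638008, plus strand) had FPKM of 6.25, 5.15 and 6.23 in WT Osteo libraries 1 to 3, 7.19, 8.74 and 8.86 in KO Osteo, 72.4, 13.6 and 58.3 in WT Adipo and 14.2, 6.16 and 5.9 in KO Adipo. Here library 2 was above all 6 osteogenic libraries, though below KO Adipo library 1. Gbp3 was at 31.1, 3.34 and 23.5 in WT Adipo against 1.74 to 4.14, and Gbp7 at 10.2, 1.54 and 8.54 against 1.49 to 2.47.

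Isg15 is a ubiquitin-like protein that is joined to other proteins in the interferon response. Isg15 (ENSMUSG00000035692, chromosome 4 from 156199424 to 156200818, minus strand) had FPKM of 6.49, 3.15 and 13.2 in WT Osteo libraries 1 to 3, 5.6, 6.87 and 6.39 in KO Osteo, 246, 7.14 and 169 in WT Adipo and 16.1, 8.84 and 13.1 in KO Adipo. Usp18 (ENSMUSG00000030107, chromosome 6 from 121245906 to 121270917, plus strand), the protease that removes Isg15 and damps receptor signalling, had FPKM of 1.23, 0.917 and 2.41 in WT Osteo libraries 1 to 3, 0.579, 1.23 and 0.866 in KO Osteo, 45.9, 1.56 and 33.5 in WT Adipo and 3.19, 2.17 and 3.06 in KO Adipo. For both genes KO Adipo lay above KO Osteo with no overlap, and WT Adipo library 2 lay below KO Adipo. Herc6, the mouse ligase for Isg15, was at 5.87, 1.11 and 4.76 FPKM in WT Adipo against 0.713 to 1.24 elsewhere. The ligase Trim25, which modifies RIG-I, had the smallest ratios of WT Adipo library 1 and of library 3 to library 2 among the 39 genes, 2.1 and 1.94, at 37.4, 17.8 and 34.5 against 15.4 to 18.3. Dtx3l, a ligase that pairs with Parp9, was at 21.1, 5.44 and 16.2 against 4.45 to 6.59.

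Parp9 and Parp14 belong to the ADP-ribosyltransferases. Parp9 was at 23.3, 6.06 and 19.8 FPKM in WT Adipo against 4.44 to 6.65 elsewhere, and Parp14 at 50.3, 7.28 and 40.5 against 5.5 to 9.53. Dtx3l (minus strand) and Parp9 (plus strand) overlap on chromosome 16 between 35938470 and 35939151, where reads of the pair cannot be told apart unless strand was used in counting, which the sources used here do not give. The membrane proteins were the most abundant of the list in each group. Ifitm3, which blocks virus fusion in endosomes, had FPKM of 188, 165 and 245 in WT Osteo libraries 1 to 3, 203, 196 and 202 in KO Osteo, 905, 202 and 673 in WT Adipo and 346, 269 and 300.4 in KO Adipo. Bst2 (tetherin), which holds virions to the cell surface, had FPKM of 111, 99 and 143 in WT Osteo libraries 1 to 3, 119, 112 and 114 in KO Osteo, 499.6, 93.8 and 361 in WT Adipo and 119, 92.2 and 93 in KO Adipo. Both were above 50 FPKM in each library, and yet WT Adipo libraries 1 and 3 were still 4.48 and 3.33 times library 2 for Ifitm3 and 5.33 and 3.84 times for Bst2.

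Rsad2 (viperin), which makes a chain-terminating nucleotide from CTP, and the nucleotide kinase Cmpk2 are neighbours on chromosome 12. Rsad2 (ENSMUSG00000020641, chromosome 12 from 26442746 to 26456452, minus strand) had FPKM of 1.2, 2.22 and 2.28 in WT Osteo libraries 1 to 3, 0.77, 1.43 and 1.23 in KO Osteo, 40.0, 1.31 and 27.2 in WT Adipo and 3.05, 1.27 and 1.37 in KO Adipo. Cmpk2 was at 26.9, 0.608 and 15.7 in WT Adipo, where library 2 lay below all 9 libraries of the other groups, whose range was 0.842 to 2.29. The remaining genes have more varied or less settled roles. Rtp4, a chaperone of membrane receptors, was at 69, 4.53 and 55.6 FPKM in WT Adipo against 2.12 to 9.64, Ifi44 at 18.2, 0.974 and 11.7 against 0.437 to 1.5, and Ifi35 at 32.5, 9.57 and 27.1 against 8.55 to 15. Xaf1, which binds the apoptosis inhibitor Xiap, was at 31.1, 5.91 and 24.7 against 1.97 to 5.94.

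The genes moved together between libraries of one group. The ratio of WT Adipo library 1 to library 2 ran from 2.1 (Trim25) to 45.7 (Mx1) with a median of 8.15, and that of library 3 to library 2 from 1.94 to 30.8 (Ifit1) with a median of 6.42. Library 1 was the highest of WT Adipo for 39 of 39 genes (30.4% of all genes tested), with a median ratio to library 3 of 1.32. Smaller shifts of the same kind appeared in other groups. WT Osteo library 3 was the highest of its group for 37 of 39 genes (31.8% of all genes tested), and its median ratio to library 2 was 1.81, up to 4.54 for Rtp4. In KO Adipo, library 1 was the highest for 32 genes (34.3% of all genes tested), with a median ratio to library 2 of 1.45. KO Osteo library 2 was the highest of its group for 30 genes (34.6%). Over the 12 libraries the median Pearson's r of log2(FPKM + 1) between 2 of the genes was 0.967 (741 pairs), and over the 10 libraries without WT Adipo 1 and 3 it was 0.537, from -0.74 upwards and above 0 in 93.5% of pairs. These r share their libraries and are a description.

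**Figure D2:**
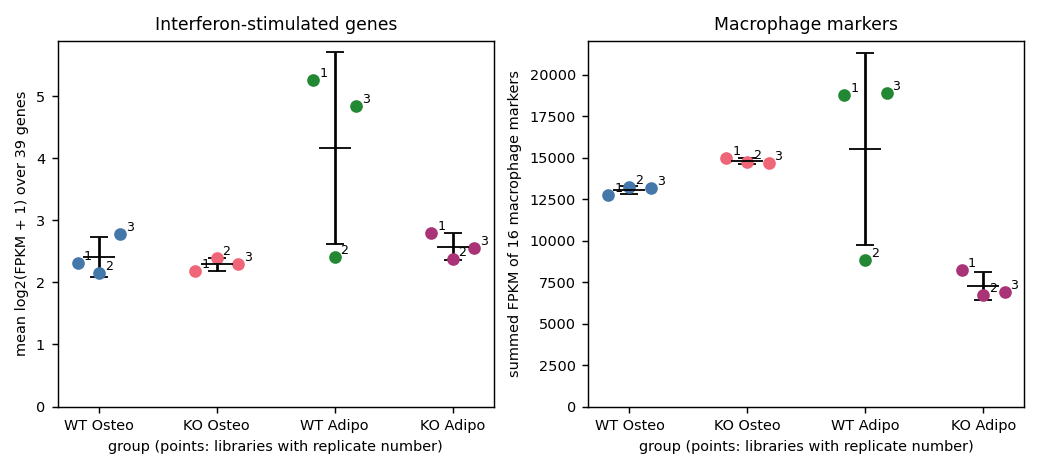
Left, mean log2(FPKM + 1) of the 39 genes per library; right, summed FPKM of 16 macrophage markers per library, both by group (x axis). Points are libraries with their replicate numbers, and bars give the mean ± SD of 3 libraries. WT Adipo libraries 1 and 3 (5.27 and 4.84; 18799.5 and 18912 FPKM) stand apart from library 2 (2.40; 8833 FPKM) in both panels.

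Macrophage markers were also unequal between the WT Adipo libraries. Their summed FPKM were 18799.5, 8833 and 18912 in WT Adipo, ratios to library 2 of 2.13 for library 1 and 2.14 for library 3, with 12743 to 13231 in WT Osteo, 14669 to 14993 in KO Osteo and 6700.2 to 8245 in KO Adipo. Lyz2 made up 57.4% to 76.2% of the sum. Over the 15 other markers the sums were 4921, 3377 and 4501 in WT Adipo, ratios to library 2 of 1.46 and 1.33, with 3787 to 3938 in WT Osteo, 3613 to 3745 in KO Osteo and 2856 to 3234 in KO Adipo. Single markers went both ways. Adgre1 was at 1171, 227 and 1136 FPKM in WT Adipo, Lyz2 at 13878, 5456 and 14412 and Cd68 at 517, 861 and 491. Of neutrophil markers, S100a8 was at 65.8, 2.48 and 86, whereas S100a9 was listed at 0 in all 12 libraries. The summed stromal markers were 1575 to 1848 FPKM in WT Adipo. Their part in the differences between libraries was not tested.

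To see what the genotype did to these genes in adipogenic medium, KO Adipo was compared with WT Adipo by limma on log2(FPKM + 1). All 36 genes tested had a lower mean in KO Adipo, with a median log2 fold change of -1.42 against -0.01 over all genes. Of them, 14 (38.9%) passed at an adjusted p of 0.05 and 28 had an unadjusted p under 0.05. The share of all genes with such an unadjusted p was not counted, so counts of this kind, here and below, are descriptions. Over all 12871 genes 33.2% passed, 16.5% as lower. The groups were free of overlap for 4 genes, Zbp1, Herc6, Trim25 and Xaf1, against 38.6% of all genes tested, and for the other 32 genes tested WT Adipo library 2 did not exceed every KO Adipo library.

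The 14 genes that fell included 3 RNA-binding effectors, 3 GTPases, 3 of the Isg15 and ubiquitin ligase genes, both PARPs and 1 sensor. Ifit3 changed the most, from 68.2 ± 58.6 to 4.63 ± 1.33 FPKM (SD, n = 3), or by -2.80 on the log2 scale (SE 0.906, limma adjusted p = 0.038). Among these it was followed by Zbp1 at -2.64 (SE 0.707, limma adjusted p = 0.0174) and Mx1 at -2.37 (SE 0.814, limma adjusted p = 0.0471). Xaf1 had the smallest adjusted p, 0.00801 by limma, at -2.05. Fold changes of the others were -2.14 for Gbp2, -2.09 for Gbp3, -1.90 for Ifi44, -1.89 for Ifit2, -1.56 for Parp14, -1.27 for Parp9, -1.17 for Herc6, -1.10 for Dtx3l, -1.01 for Eif2ak2 and -0.78 for Trim25.

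Several of the best-known genes did not pass. Isg15 was at 141 ± 122 FPKM in WT Adipo and 12.7 ± 3.63 in KO Adipo, a log2 difference of -2.39 (SE 1.05, limma adjusted p = 0.104). Ifit1 was at 40.7 ± 34.9 and 3.1 ± 1.3, with -2.43 (limma adjusted p = 0.0791). For Rsad2, Usp18 and Irf7 the log2 differences were -2.31, -2.09 and -2.04 (limma adjusted p = 0.0606, 0.0876 and 0.0745). None of the 3 transcription factors, 5 Oas genes tested, 2 membrane proteins or 2 nucleotide enzymes passed by limma, though 2, 2, 1 and 1 of them had an unadjusted p under 0.05. In WT Adipo the SD of Isg15 and Ifit1 was close to the mean.

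Leaving out WT Adipo library 2 changed the result. All 36 genes then fell, with a median log2 fold change of -2.31, against 51.2% of all genes tested. The range ran from -4.16 for Ifit3 to -0.87 for Irf9, and the largest limma adjusted p was 0.000718 for the list. Isg15 was at -3.94 (SE 0.43), Ifit1 at -3.93 (SE 0.26) and Irf7 at -3.23 (SE 0.305). This fit leaves 2 WT Adipo libraries, which stood above all 9 libraries of the other groups for 39 of 39 genes. Leaving out the low library thus set the direction and the separation in advance. For these genes its p-values, and those of the fits below without library 2, are descriptions. Without library 1 or without library 3, by contrast, 2 of 36 passed, Gbp2 and Xaf1 in both cases, against 23.8% and 24.2% of all genes tested, and the median was -0.91 and -1.11. Leaving out a KO Adipo library left 7, 2 and 2 genes for libraries 1, 2 and 3, against 29.6%, 23.5% and 21.4% of all genes. In each of these fits the sign was negative for 36 of 36 genes. The size of the difference thus rested on which WT Adipo libraries were used, and whether a gene passed rested on the libraries of both groups.

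**Figure D3:**
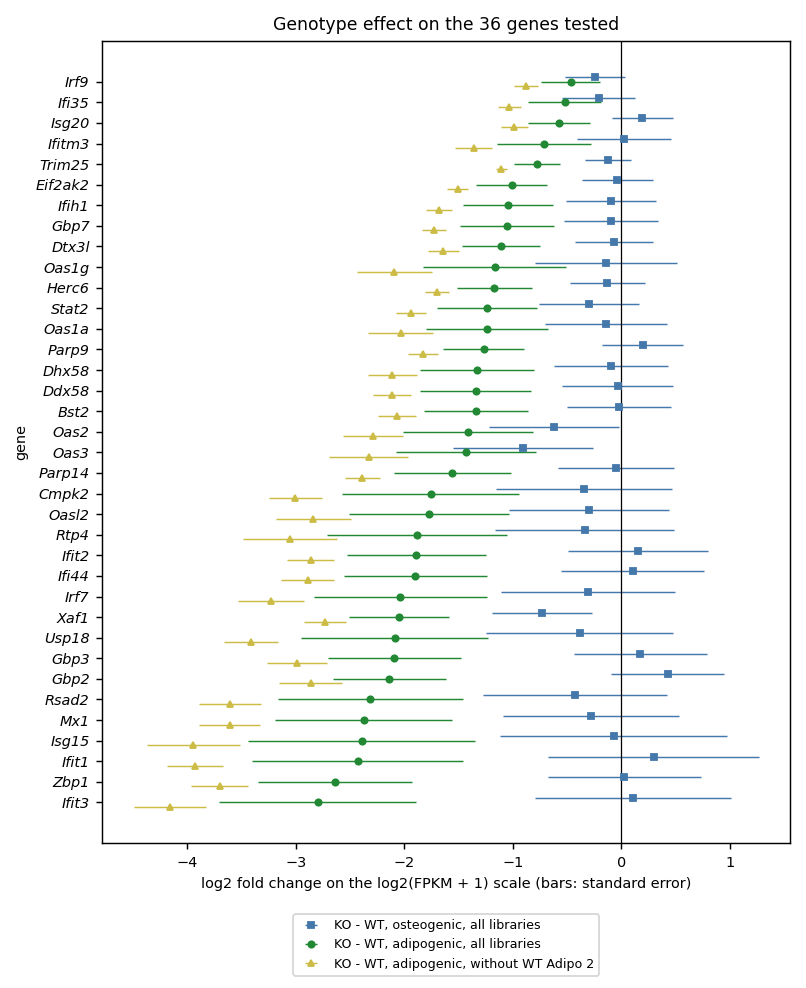
Log2 fold change of KO against WT for the 36 genes tested (y axis), on the log2(FPKM + 1) scale (x axis), with bars of 1 standard error. Squares are osteogenic medium, circles adipogenic medium with all libraries and triangles adipogenic medium without WT Adipo library 2; circles lie at -0.47 or lower and triangles at -0.87 or lower, while squares lie on both sides of 0.

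The number of genes passing was compared across the ways of processing the values. Without the filter on low values, which adds weakly expressed genes to the test, 4 of 39 genes passed in KO Adipo against WT Adipo, against 12.5% of all genes tested, and Ifit3b, Oasl1 and Mx2 were at -2.45, -2.01 and -1.37 (limma adjusted p = 0.0769, 0.108 and 0.154). With the 6 adipogenic libraries alone 0 passed by limma, against 13% of all genes. Limma voom on the recovered fragments called 5 of 36, against 32.5% of all genes. The direction was negative for each gene tested under each of these settings.

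**Figure D4:**
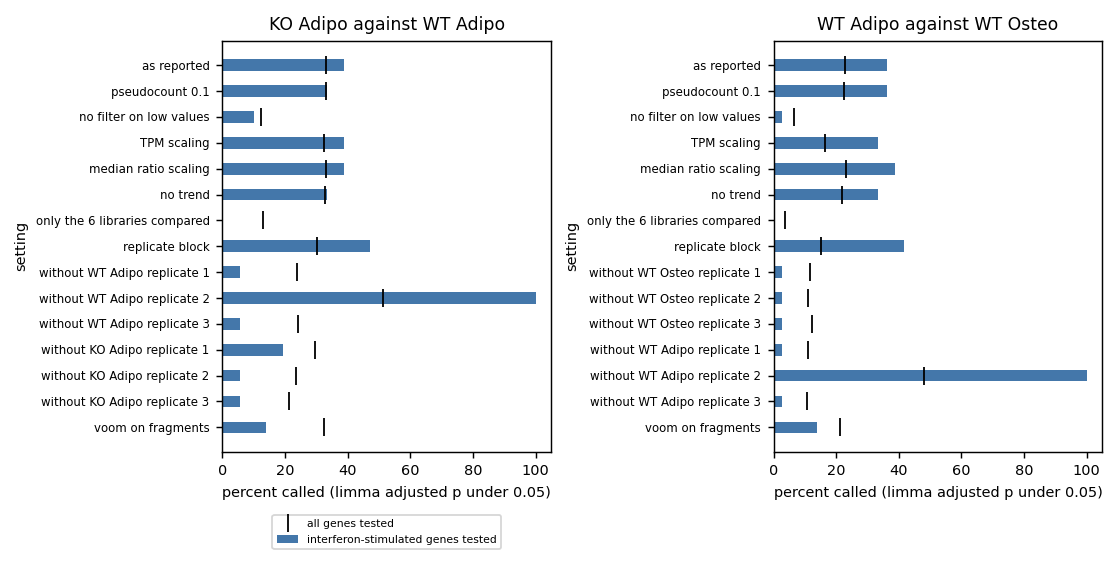
Percent of genes with a limma adjusted p under 0.05 (x axis) under each setting (y axis), for KO Adipo against WT Adipo (left) and WT Adipo against WT Osteo (right). Bars are the interferon-stimulated genes tested and black ticks all genes tested under the same setting. The bars reach 100% without WT Adipo replicate 2 and are at 38.9% and 36.1% with all libraries.

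In osteogenic medium no gene of the list passed between KO Osteo and WT Osteo by limma, and 0 had an unadjusted p under 0.05. Limma voom on recovered fragments also gave 0. Over all genes 9.09% passed, 4.15% as lower. The median log2 fold change was -0.09 against -0.01 over all genes, with 10 genes higher and 26 lower in KO Osteo, and the smallest adjusted p was 0.396 (Xaf1, at -0.73). The largest difference was -0.90 for Oas3 (limma adjusted p = 0.46), which was at 5.56 ± 3.57 FPKM in WT Osteo and 2.2 ± 0.41 in KO Osteo. Without WT Osteo library 3 the balance turned, to 21 genes higher and 15 lower and a median of 0.07. The groups did not overlap for 7 genes, namely Stat2, Oas3, Gbp2, Trim25, Cmpk2, Ifi35 and Xaf1, against 44.3% of all genes tested. One SE, which pools the spread of all 4 groups, was 1.05 for Isg15 and 0.21 for Trim25, so the precision differed widely between genes. In a fit of the 6 osteogenic libraries alone, 2 genes passed, 1 higher and 1 lower in KO Osteo, against 26.6% of all genes.

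Whether the genotype difference depended on the medium was tested as an interaction. Of the 36 genes 1 passed, Gbp2, at -2.57 (SE 0.738, limma adjusted p = 0.0349), and 6 had an unadjusted p under 0.05. Over all genes 20.4% passed, 9.58% as lower. Gbp2 was at 5.88 ± 0.626 FPKM in WT Osteo and 8.27 ± 0.932 in KO Osteo, but 48.1 ± 30.7 in WT Adipo and 8.74 ± 4.7 in KO Adipo. All 36 interaction terms were negative, with a median of -1.32 against -0.0028 over all genes. Without WT Adipo library 2 all 36 passed, against 42.3% of all genes tested, with a median of -2.03. Without WT Adipo library 1 or 3, without any 1 osteogenic library, or without KO Adipo library 2 or 3, 0 passed, against 13.8% to 16.6% of all genes, and Gbp2 had a limma adjusted p of up to 0.0839.

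The media were compared within each genotype. In control cells 13 of 36 genes were higher in WT Adipo than in WT Osteo by limma and 34 had an unadjusted p under 0.05, against 22.8% passing of all genes, 10.5% as higher. The median log2 fold change was 1.61. Among those that passed, Ifit1 rose the most, from 1.12 ± 0.506 to 40.7 ± 34.9 FPKM, by 3.36 on the log2 scale (SE 0.972, limma adjusted p = 0.0343), followed by Ifit3 at 3.15 and Usp18 at 2.72 (limma adjusted p = 0.0337 and 0.047). Isg15, at 3.20, did not pass (limma adjusted p = 0.0514). The others that rose were Gbp2, Zbp1, Gbp3, Ifi44, Ifit2, Parp14, Xaf1, Parp9, Isg20 and Trim25, from 2.54 for Gbp2 to 0.67 for Trim25. Only Gbp2 was free of overlap, against 34.4% of all genes. This comparison and that of the genotypes in adipogenic medium share the WT Adipo libraries. Without WT Adipo library 2 all 36 rose, against 48.0% of all genes, by 0.99 (Irf9) to 4.86 (Ifit1). Leaving out any other library of the 2 groups left 1 gene, against 10.7% to 12.4% of all genes.

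In cells labelled KO, 0 genes differed between KO Adipo and KO Osteo by limma, 0 had an unadjusted p under 0.05 and limma voom called 0, against 27.9% of all genes. The median was 0.26, with 28 genes higher and 8 lower in KO Adipo, and the largest differences were 1.01 for Usp18, 0.89 for Oas3 and 0.87 for Isg15 (limma adjusted p = 0.423, 0.341 and 0.58). Isg15 was at 6.29 ± 0.645 FPKM in KO Osteo and 12.7 ± 3.63 in KO Adipo. For 16 genes the groups did not overlap, against 52.5% of all genes. In a fit of the 6 KO libraries alone, which leaves out the spread within WT Adipo, 14 genes (38.9%) passed and all were higher in KO Adipo, against 37.4% of all genes.

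Genes that produce, receive and restrain the interferon signal were examined from a second list of 55, none of them among the 39. Few fragments were counted on the ligands. Of 15 interferon genes, 10 were listed at 0 in all 12 libraries and none exceeded 6 fragments in a library. Ifnb1 had 4 fragments (0.329 FPKM) in WT Adipo library 3 and was listed at 0 elsewhere, Ifna4 had 3 fragments there, and Ifna5 had 5 in WT Adipo library 1. Ifnz had 3, 2 and 6 fragments in WT Adipo libraries 1 to 3, 4, 1 and 5 in WT Osteo and 2 in each KO Adipo library. Ifnk had 2 in WT Adipo library 1 and 1 in KO Osteo library 1. Ifng was listed at 0 throughout. The nuclease Trex1, which many cell types use, was also listed at 0 in all 12 libraries, so a 0 in this table may be a failed estimate and is not read as absence of a transcript. The 39 interferon-stimulated genes had 8 to 10087 fragments per library. Thus the few fragments of Ifnb1, Ifna4 and Ifna5 all came from WT Adipo libraries 1 and 3, while those of Ifnz were spread over the 4 groups. All were too few for a comparison.

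Of the 55 genes 35 were tested. In KO Osteo against WT Osteo 9 (25.7%) were lower and 0 higher, against 9.09% of all genes passing, 4.15% as lower. In KO Adipo against WT Adipo 10 were lower and 2 higher, and these 34.3% were close to the 33.2% of all genes. Once WT Adipo library 2 was left out, 23 were lower and 2 higher (71.4%, against 51.2% of all genes), and without library 1 or 3, 4 were lower and 3 or 1 higher (20% and 14.3%, against 23.8% and 24.2%). The receptor subunits Ifnar1 and Ifnar2 were at 26.9 ± 1.72 and 24.4 ± 1.44 FPKM in WT Osteo, 29.3 ± 4.58 and 26.6 ± 3.4 in WT Adipo, and 24.1 ± 3.48 and 19.9 ± 0.915 in KO Adipo. The receptor was thus measured well in each group. Ifnar2 fell in KO Adipo by 0.39 on the log2 scale (limma adjusted p = 0.0111), and by 0.50 without WT Adipo library 2. Ifnar1 was at -0.27 and did not pass (limma adjusted p = 0.107), though it did without that library, at -0.40 (limma adjusted p = 0.0062). Ifngr1, of the receptor for type II interferon, was lower in KO Osteo at -0.44 and higher in KO Adipo at 0.28 (limma adjusted p = 0.00443 and 0.0138). The latter was 0.33 without WT Adipo library 2, and did not pass without library 3 (limma adjusted p = 0.0529). Of the 5 transducers tested, 2 were lower in KO Adipo (40%, against 33.2% of all genes) and 0 passed in KO Osteo, against 9.09%. Jak1 was 1 of these 2. It was at -0.28 without WT Adipo library 2, and did not pass without library 1 or 3 (limma adjusted p = 0.138 and 0.142). Tyk2 did not pass in either medium, at -0.13 and -0.12.

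Irf1, known both to be induced by interferon and to activate interferon genes, was likewise highest in WT Adipo libraries 1 and 3. Irf1 had FPKM of 9.12, 8.38 and 9.78 in WT Osteo libraries 1 to 3, 10.8, 10.5 and 10.2 in KO Osteo, 20.1, 11.8 and 16.5 in WT Adipo and 14.2, 7.9 and 8.06 in KO Adipo. In KO Adipo it fell by 0.65 on the log2 scale (limma adjusted p = 0.0388), and by 0.85 without WT Adipo library 2, while the adjusted p was 0.135 without library 1 and 0.0998 without library 3. The feedback inhibitor Socs1 was at 4.14, 0.756 and 3.27 FPKM in WT Adipo against 0.732 to 1.15 elsewhere, with -0.91 in KO Adipo (limma adjusted p = 0.0471). Its difference was -1.39 without WT Adipo library 2, and it did not pass without library 1 or 3 (limma adjusted p = 0.16 and 0.15). The phosphatase Ptpn6 fell too, at -1.06 (limma adjusted p = 0.0184), and was at 146, 62 and 135 FPKM in WT Adipo. Without library 2 it was at -1.45, and without library 1 or 3 it did not pass (limma adjusted p = 0.0681 and 0.0683). Irf8, a factor of the macrophage lineage, was lower in KO Adipo at -0.46 with little spread, 17.6 ± 1.19 against 12.6 ± 0.892 FPKM (limma adjusted p = 0.000662), and at -0.51 without WT Adipo library 2. Irf3, which starts Ifnb1 transcription, did not pass in either genotype comparison, and Mavs, the adaptor of the RNA sensors, passed in KO Adipo against KO Osteo, at -0.27. Samhd1, which depletes nucleotides, was higher in KO Adipo than KO Osteo by 0.97 (limma adjusted p = 0.0126).

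Tlr7 (ENSMUSG00000044583, chromosome X from 167304929 to 167330558, minus strand), the endosomal sensor of single-stranded RNA, had a pattern of its own. Its FPKM were 55, 58.7 and 56.4 in WT Osteo libraries 1 to 3, 23.7, 24.4 and 23.8 in KO Osteo, 24.8, 20.8 and 26.5 in WT Adipo and 33.3, 49.3 and 48.8 in KO Adipo. The 3 WT Osteo libraries were the highest, all 3 KO Adipo libraries exceeded KO Osteo and WT Adipo, and WT Adipo library 2 was close to its group. Group means of Ifngr1 and Tlr8 were likewise highest in WT Osteo (50.6 and 32.4 FPKM) and second highest in KO Adipo (45.1 and 22.1). For Tlr8, however, KO Adipo library 1 was at 16.2. For Tlr7, KO Osteo was lower than WT Osteo at -1.21 (SE 0.135, limma adjusted p = 0.00063). Its level in KO Adipo was higher than in WT Adipo, at 0.82 (SE 0.135, limma adjusted p = 0.00142). The interaction for Tlr7 was 2.03 (limma adjusted p = 0.000106) and stayed between 1.94 and 2.22 with any 1 library left out. Tlr9, a sensor of DNA, was also lower in KO Osteo at -0.82 (limma adjusted p = 0.0066), as was Tlr8 at -0.66 (limma adjusted p = 0.0297). Unc93b1, which carries these receptors to endosomes, fell in KO Adipo at -0.92 (limma adjusted p = 0.00249), and was at -1.16 without WT Adipo library 2. Of 16 macrophage markers, 10 were lower and 1 higher in KO Adipo, against 33.2% of all genes passing, 16.5% as lower. These were 12 and 3 without WT Adipo library 2, against 51.2%. In KO Osteo 2 were lower and 1 higher, against 9.09% of all genes, and the part of these markers in the values above was not tested.

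**Figure D5:**
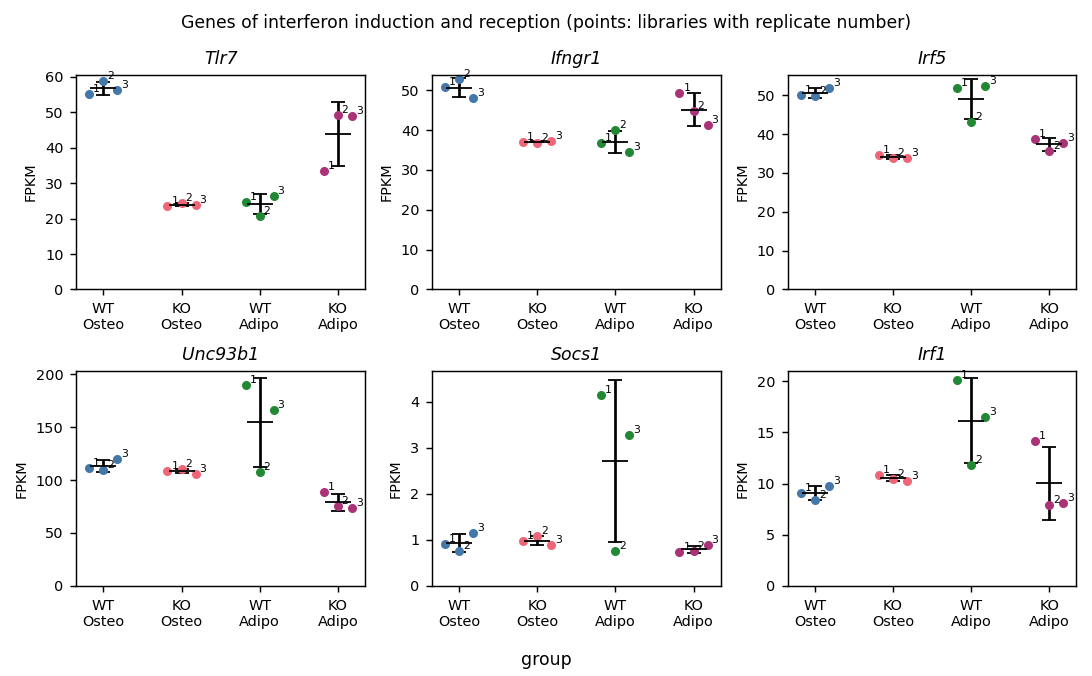
FPKM (y axis) of 6 genes of interferon induction and reception in each group (x axis). Points are libraries with their replicate numbers, and bars give the mean ± SD of 3 libraries. Tlr7 is highest in WT Osteo and second highest in KO Adipo, while Socs1 and Irf1 are highest in WT Adipo libraries 1 and 3.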

How the data were processed

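The authors deposited FPKM per gene for 12 libraries in a single table. NEBNext Ultra libraries were sequenced on an Illumina HiSeq. The submitters' processing notes name Bowtie 0.12.2 and mm9, whereas the paper lists HISAT2 and Ballgown among its software, so the build and aligner behind the values are uncertain, and strand use and the handling of shared reads are not given in the sources used here. Symbols and gene positions come from GENCODE M21 (GRCm38), matched for 54409 of 54532 identifiers. Samples were grouped by their titles. All per-library columns were used.

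The 12871 genes that reached 1 FPKM in 3 or more libraries entered the test on log2(FPKM + 1), run with limma 3.58.1 in R 4.3.3, with a mean-variance trend, 4 group means over all 12 libraries and Benjamini-Hochberg adjustment over all genes tested, at 0.05. Fold changes on this scale understate changes of low genes. Of values under 30 fragments, 98.2% to 98.4% were whole multiples of 1 fragment within 0.02 (4% by chance), so limma voom was run on the recovered fragments as an alternative chosen after seeing the data. It called 1181, 4175, 2580 and 2719 genes in KO Osteo against WT Osteo, KO Adipo against WT Adipo, the interaction and WT Adipo against WT Osteo. Intervals and floors cover counting error only. Further alternatives were a pseudocount of 0.1, no filter, TPM scaling, median ratio scaling, no trend, a block for the replicate number, fits of only the 6 libraries compared, and each library left out. Leaving out WT Adipo libraries for the pathway and marker lists was added after seeing the data. The procedure was tested on simulated data in which each gene had the same spread in all groups. The listed genes varied far more in WT Adipo, so that test does not cover the calls on them.

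The 39 genes and all lists were chosen with earlier results of these data known. Values in every library were to be given for Irf7, Irf9, Stat2, Isg15, Ifit1, Usp18, Rsad2, the 3 called genes with the largest fold change in each comparison and selected pathway genes, and the rest as ranges and counts. A pathway gene that the rule would name enters the counts but is not reported here. Ifitm3, Bst2 and Oas3 were added after their values were seen. Promoter sequences are RefSeq's (GRCm38.p6). Figures were drawn in Python 3.11.15 with matplotlib 3.10.9. The authors' other experiments were not analysed here.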

Additional observations from a re-analysis of the deposited data

Results flagged for a closer look

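Between the 2 media, the KO minus WT difference itself differed for 8 of the genes described, by the interaction test of limma across all genes (adipogenic minus osteogenic, log2). These were 1 of the 36 interferon-stimulated genes tested (2.78%) and 7 of the 35 pathway genes tested (20%), against 20.4% of all genes. Gbp2 was the single interferon-stimulated gene among them, at -2.57 (limma adjusted p = 0.0349), and it did not pass when any 1 osteogenic library, or a WT Adipo library other than library 2, was left out. Tlr7 was at 2.03 (limma adjusted p = 0.000106), Tlr8 at 0.87 (0.0220), Ifngr1 at 0.72 (0.00101) and Irf2 at 0.61 (0.00852). Smaller positive values were found for Irf3 at 0.23 (0.0477) and Pias1 at 0.22 (0.0433), and Unc93b1 was at -0.86 (0.0289). Without WT Adipo library 2, Gbp2 was at -3.29, Tlr7 at 1.94, Tlr8 at 0.74, Ifngr1 at 0.77, Irf2 at 0.50, Irf3 at 0.22, Pias1 at 0.23 and Unc93b1 at -1.10, and the largest limma adjusted p of the 8 was 0.0337. Without WT Adipo library 3, Irf3, Pias1 and Unc93b1 did not pass (limma adjusted p = 0.0987, 0.0844 and 0.0641).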

How the results depend on the processing

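For KO Osteo against WT Osteo and KO Adipo against KO Osteo, 0 of the 36 genes passed under each setting except the fits of only the 6 libraries compared, which gave 2 and 14. For KO Adipo against WT Adipo (14 as reported), 4 passed without the filter on low values, 0 with only the 6 libraries compared and 5 by limma voom on recovered fragments. For WT Adipo against WT Osteo (13 as reported), the numbers were 1, 0 and 5, against 6.68%, 3.81% and 21.1% of all genes. For the interaction (1 as reported) 0 passed without the filter and by voom, against 6.79% and 20.1% of all genes. Leaving out 1 library at a time gave 2 to 36, 1 to 36 and 0 to 36 genes for these comparisons in turn, the highest each time without WT Adipo replicate 2, and 0 to 0 for KO Osteo against WT Osteo and KO Adipo against KO Osteo. Settings named neither here nor below stayed within 1.5 times the number reported. TPM scaling moved the median of all genes by 0.14 in KO Adipo against WT Adipo, 0.16 in the interaction and -0.10 in WT Adipo against WT Osteo, and the 36 genes kept their sign in each. The cause of these changes was not tested, apart from the numbers of genes and libraries that a setting changes by construction.

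With the replicate block, 0, 17, 2, 15 and 0 genes passed in KO Osteo against WT Osteo, KO Adipo against WT Adipo, the interaction, WT Adipo against WT Osteo and KO Adipo against KO Osteo. The shares of all genes passing were 5.78%, 30.2%, 16.9%, 15.1% and 22.4% in the same order. Same-numbered libraries share only a number. Deviations from the group means correlated between WT and KO with r of 0.466, 0.397 and -0.286 for numbers 1 to 3 in adipogenic medium and -0.0375, 0.0576 and -0.0295 in osteogenic medium. Among 30 pairs of a named gene and a comparison, no alternative turned a direction. Other settings left 195 values on the same side of the threshold, took 41 below it and brought 1 past it, and leaving out a library left 129, took 62 below and brought 7 past. The interferon genes themselves had at most 6 fragments in a library and were not compared.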
